A study of Homo sapiens with 34 samples.

Results

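Cells carrying a deletion inside an intron of HDAC7 were set directly against cells labelled as HDAC7 knockouts, which places an edit of noncoding sequence beside an edit meant to disable the same gene. The 6 libraries compared are all those whose column names carry HDAC7 as the edited gene, 4 of the deletion and 2 of the knockout, out of 34 libraries in the series. Total RNA of hTERT RPE-1 cells, an immortalised line of human retinal pigment epithelium, was freed of ribosomal RNA and sequenced with strand kept. Edits were made with hybrid guide RNAs (hgRNAs), single transcripts that carry a guide for the nuclease Cas9 and a guide for the nuclease Cas12a. Cells received the hgRNAs by lentivirus at under 1 virus per cell, were kept 72 h in 20 µg/ml of puromycin and grew for 4 more days before harvest; the labels name no cloning step, so each library is taken to be a mixed population in which edited alleles can lie beside unedited ones.

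The deletion was made with 2 hgRNAs, each in 2 biological duplicates, and per the labels removes sequence that spans a PTC exon, an exon whose inclusion brings in a premature termination codon. The knockout was made with 1 hgRNA in 2 duplicates, in which the labels name a Cas9 guide against an exon from the TKOv3 knockout library and a Cas12a guide against an intergenic site. The 4 intergenic control libraries received 2 hgRNAs whose guides both lie between genes, so they too were cut, and 6 further knockout libraries target DDX5, DDX17 and FNBP4. For the same 3 genes there are 16 intronic deletion libraries, which enter a comparison with HDAC7 below, and 2 deletion libraries of HNRNPD enter the fit only. All 34 libraries come from the same line and the same selection.

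HDAC7 belongs to the class IIa histone deacetylases, together with HDAC4, HDAC5 and HDAC9. These proteins bind MEF2 transcription factors and hold MEF2 target genes down through corepressor complexes that contain HDAC3. Kinases of the CaMK and protein kinase D families phosphorylate them, 14-3-3 proteins then bind and keep them in the cytoplasm, and MEF2 targets are released. A transcript that takes in a PTC exon is usually degraded by nonsense-mediated decay, so such exons can lower the output of their host gene.

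The guides of the deletion are shown because they set which bases of HDAC7 could be removed. Both hgRNAs share their Cas9 guide and differ in their Cas12a guide, and the protospacer-adjacent motif (PAM), which the nuclease needs beside its target, is in capitals.
Deletion, both hgRNAs, Cas9, chr12:47790299-47790318, on the strand of HDAC7: gtggaagacagtggtgcagaCGG
Deletion, hgRNA 1, Cas12a, chr12:47790955-47790977, opposite strand: TTTGaagggagagatgatcctaagccc
Deletion, hgRNA 2, Cas12a, chr12:47790784-47790806, opposite strand: TTTGgggctatgtcccggagtggggag
Positions are on GRCh38 (GENCODE v29), and HDAC7 lies on the minus strand of chromosome 12. All 3 targets lie in the intron at chr12:47789921-47791258, 1338 bases long, between exons 16 and 17 of the 27 exons of transcript ENST00000380610.8. Between the targets lie 636 bases with hgRNA 1 and 465 bases with hgRNA 2.

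The PTC exon inside that intron is 258 bases long at chr12:47790206-47790463. It is shown here as transcribed, with the target of the Cas9 guide in capitals.
HDAC7 PTC exon: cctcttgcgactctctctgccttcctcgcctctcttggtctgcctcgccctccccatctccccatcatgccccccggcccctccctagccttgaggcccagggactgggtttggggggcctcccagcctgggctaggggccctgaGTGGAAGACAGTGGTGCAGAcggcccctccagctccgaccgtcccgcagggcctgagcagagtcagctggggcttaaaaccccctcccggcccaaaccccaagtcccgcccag
Read in the frame of the exon before it, which 7 coding transcripts share, the exon holds 2 stop codons, the first a TGA at its base 199. The Cas9 target covers bases 146 to 165 of the exon. The stretch between the guide targets therefore holds the 3′ splice site of the exon and its first 145 bases, and leaves both stop codons outside.

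The label of the knockout does not name a guide that matches HDAC7. It gives the same 20 bases as the Cas9 and as the Cas12a guide, while the Cas12a guides of the deletion hgRNAs have 23 bases.
Labelled HDAC7 knockout, both guides: gaagtctgggatgagaacacGGG
These bases match the coding strand of FNBP4 at chr11:47751245-47751264, with the Cas9 PAM in capitals, match no HDAC7 transcript, and are also the Cas9 guide in the label of the FNBP4 knockout. Which guide the cells received was not tested, and the 2 libraries are called knockout below only by their label.

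Counts of spliced-junction reads per library were available and served as the measure of gene expression. The deletion libraries held 18109446 and 16316634 such reads with hgRNA 1 and 16688436 and 15748016 with hgRNA 2, and the knockout libraries 15898638 and 16291297. Reads across an exon-intron border, a sign of unspliced RNA, made up 1.92 and 2.77% of reads with hgRNA 1, 1.98 and 2.00% with hgRNA 2, and 1.18 and 1.93% in knockout replicates 1 and 2. Replicate 1 of all 4 knockouts in the series lay between 0.97 and 1.21%, below the other 30 libraries, which had at least 1.86%. Knockout replicate 1 therefore stands apart on the low side and deletion hgRNA 1 replicate 2 on the high side of the deletion libraries, and results are given with and without knockout replicate 1. Of the markers of pigment epithelium, the transcription factors PAX6, MITF and OTX2, the retinol dehydrogenase RDH5 and the broadly expressed KRT8, KRT18 and CST3 were present. Defining markers of the mature tissue were at or near 0: BEST1, RLBP1, LRAT, TTR, TYR, DCT and CRX had 3 reads or fewer in each of the 6 libraries, and RPE65 had 0 to 4. The 19 pigment epithelium markers in the table summed to 1138 to 1240 CPM (junction reads scaled to a common library total, here without TMM) in the deletion libraries and 1279 to 1601 CPM in the knockout libraries. The broadly expressed KRT8 and KRT18 made up most of this sum. With the reads of each group pooled, they had 477 and 467 CPM in the deletion and 708 and 528 CPM in the knockout. Of the other markers present, PAX6, RDH5 and CST3 were higher in the deletion, and MITF and OTX2 in the knockout.

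HDAC7 itself was expressed in all 6 libraries. It had 154 and 244 CPM in deletion hgRNA 1, 143 and 142 CPM in deletion hgRNA 2, and 179 and 180 CPM in the knockout, against 176 to 244 CPM in the 4 controls. The deletion libraries lie on both sides of the knockout libraries, and replicate 2 of hgRNA 1 is far above its 3 companions. CPM values of single genes are scaled between libraries by TMM, a normalisation to a common bulk of genes. In the fit across all genes, which also removes from each library a smooth trend with GC content and length of the genes, HDAC7 was 0.39 lower on the log2 scale in the deletion than in the knockout (SE 0.118, limma adjusted p = 0.0357). The call ends without the trend (-0.11, limma adjusted p = 0.767), under both other filters on low counts (adjusted p = 0.0838 and 0.0603), without knockout replicate 1 (-0.36, adjusted p = 0.262) and without any 1 of 4 further libraries of the 6, deletion hgRNA 1 replicate 2 being the exception.

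Against the controls in the same fit, HDAC7 was 0.35 lower in the deletion (log2 -0.35, limma adjusted p = 0.0414) and 0.04 higher in the knockout (adjusted p = 0.863), so the label of the knockout could not be checked from the RNA level of its target. A knockout by small insertions and deletions need not lower RNA. The authors' deposited table gives HDAC7 an RPKM of 55.4 for deletion hgRNA 1, 46.9 for deletion hgRNA 2 and 62.8 for the knockout. In the authors' deposited table the log2 fold changes against the controls are -0.07, -0.44 and -0.08, in the same order, with false discovery rates of 0.991, 0.574 and 0.934. FNBP4, which the labelled knockout guide matches, did not pass the test between deletion and knockout (log2 -0.04, limma adjusted p = 0.93). The authors' RPKM of FNBP4 is 11.6, 13.1 and 12.5, and its log2 fold change in the knockout against the controls is -0.27 (false discovery rate 0.732). These values do not tell which guide the cells received.

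**Figure D1:**
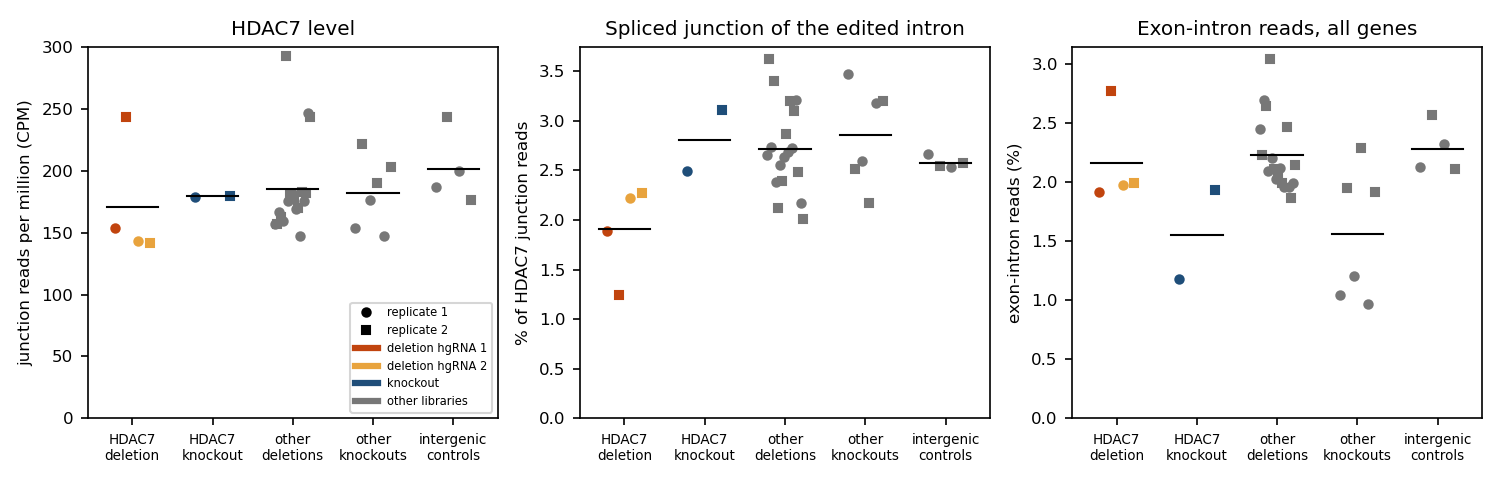
Each point is 1 library, with circles for replicate 1 and squares for replicate 2, and bars mark group means; the panels show HDAC7 level in CPM, the share of HDAC7 junction reads that cross the edited intron in percent, and exon-intron reads of all genes in percent. Deletion libraries hold 1.24 to 2.27% of HDAC7 junction reads at the edited intron, below both knockout libraries, and replicate 1 of every knockout lies at 1.21% of exon-intron reads or less.

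The spliced junction of the edited intron took a smaller share of HDAC7 reads in the deletion. It had 52 and 45 reads with hgRNA 1 and 51 and 50 reads with hgRNA 2, against 66 and 89 reads in the knockout and 84 to 103 reads in the controls. As a share of all HDAC7 junction reads in the library this was 1.89, 1.24, 2.22 and 2.27% in the 4 deletion libraries and 2.5 and 3.11% in the knockout libraries. The 4 deletion libraries lie below both knockout libraries, but an exact two-sided permutation test of 4 against 2 libraries gives p = 0.133, the smallest its 15 splits allow. Against the 30 other libraries together, which averaged 2.73 ± 0.42% (SD), the deletion averaged 1.91 ± 0.47% (SD, n = 4), or 69.7% of their mean (exact two-sided permutation test, p = 0.000733, 46376 splits). Of the 30 others, 4 lie below the highest deletion library. The splits treat every library as independent, although duplicates share an hgRNA and the 4 deletion libraries hold 2 hgRNAs. The permutation p therefore does not measure the spread between hgRNAs and can be too small. The exact permutation p was 0.018 without deletion hgRNA 1 replicate 2, the lowest library, and 0.000733 without knockout replicate 1. A lower share was not confined to the edited intron. At the unedited intron chr12:47784218-47785386 the share averaged 1.41% in the deletion and 2.18% in the 28 libraries outside HDAC7. There all 4 deletion libraries (1.16 to 1.66%) lay below the controls (1.90 to 2.85%) but overlapped the knockout libraries (1.48 and 2.44%), and no test was made.

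Reads that run from the edited intron into the exon after it were more frequent in the deletion than in the knockout. Retention of the intron, as deposited, was 11.9 and 17.4% with hgRNA 1, 10.5 and 8.3% with hgRNA 2, and 0.8 and 1.1% in the knockout. These values rest on few reads, 14, 16, 10 and 7 across the 3′ border of the intron in the deletion libraries and 1 and 2 in the knockout libraries. Across its 5′ border there were 0, 3, 2 and 2 reads in the deletion libraries and 0 in each knockout library. Most of the reads thus lie at the 3′ end and do not show retention of the whole intron. The deletion and knockout libraries do not overlap, yet the controls had 3.1 to 8.8%, the 28 libraries outside HDAC7 had 0 to 13%, and the difference did not pass the test (limma adjusted p = 0.257, and 0.592 without knockout replicate 1). A second event in the edited intron, an exon at chr12:47791025-47791142 upstream of all guide targets, was included at 0.8, 0.9, 0.9 and 2.0% in the deletion libraries, against 0% in both knockout libraries and 0 to 0.5% in the 28 others (limma adjusted p = 0.243).

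The PTC exon was hardly included in any library. It had 2 inclusion reads in the 4 deletion libraries, both in 1 library of hgRNA 2, beside 557 reads that skip it. The knockout libraries had 0 inclusion reads beside 422 skipping reads, which allows an inclusion of up to 0.711% (3 counts; counting error only), and the 28 others had 2 inclusion reads beside 6336. A lower inclusion in the deletion was therefore not detectable at this depth. The exon after the edited intron, exon 17 at chr12:47789813-47789920, was included at 97.9, 96.6, 99.0 and 99.1% in the deletion libraries and at 100% in both knockout libraries (limma adjusted p = 0.17).

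The knockout libraries differed from all others at the 5′ end of HDAC7. Reads that skip exon 3 (chr12:47798785-47798972, 188 bases) numbered 0 in each of the 4 deletion libraries and 2 and 2 in the knockout libraries. Reads that skip exon 4 (chr12:47798562-47798652, 91 bases) numbered 0 in each deletion library and 1 and 2 in the knockout libraries, and for exon 5 (chr12:47798108-47798219, 112 bases) 0 in each deletion library and 1 and 5 in the knockout libraries. The 28 other libraries, both FNBP4 knockout libraries among them, held 1, 0 and 0 such reads for the 3 exons. None of these lengths is a multiple of 3, so a transcript that lacks 1 of them shifts its reading frame.

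In the knockout, inclusion was 98.3 and 97.2% for exon 3, 97.8 and 95.1% for exon 4, and 97.9 and 91.6% for exon 5, where the deletion libraries all had 100%. A count of 0 allows skipping of up to 0.634, 0.904 and 0.972% over the 4 deletion libraries. The differences were 2.3, 3.5 and 5.3 points, and 2.8, 4.9 and 8.4 points without knockout replicate 1. With all libraries they passed the test over all 211378 events (limma adjusted p = 0.0308, 0.00229 and 0.00229). Without deletion hgRNA 1 replicate 2 exon 3 did not pass it and exons 4 and 5 did (limma adjusted p = 0.127, 0.00927 and 0.00534). All 3 differences stay under the 10 points asked of a called event, rest on 13 reads in all, and were picked out after their values were seen. The test uses a log2 ratio of inclusion to exclusion reads, which follows read depth where exclusion reads are absent. An exon of PIK3IP1, included at 100% in all 6 libraries, passed it too (limma adjusted p = 0.0245), so these p-values do not measure splicing alone.

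Coverage of the junctions also differed between deletion and knockout, along much of HDAC7 and not only near exons 3 to 5. Of the 25 introns in the table, 23 had a mean share of at least 1% of HDAC7 junction reads. The junction between exons 4 and 5 (intron chr12:47798220-47798561) took 3.09, 2.32, 1.87 and 3.27% of reads in the deletion libraries and 1.14 and 1.15% in the knockout libraries, the lowest 2 values of all 34. The junction of the intron at chr12:47796299-47797016 took 1.78, 1.02, 1.26 and 2.27% in the deletion libraries and 0.946 and 0.873% in the knockout libraries, again below the 32 others. In the 3′ part of the gene the order turned, and the intron at chr12:47786704-47787711 took 11.23, 10.98, 18.4 and 15.6% in the deletion libraries against 19.4 and 19.1% in the knockout libraries, above the 32 others. In all, 6 introns had higher and 3 lower shares in every deletion library than in both knockout libraries; shares of 1 gene sum to a fixed total, so they cannot move one by one. No test was made of these.

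**Figure D2:**
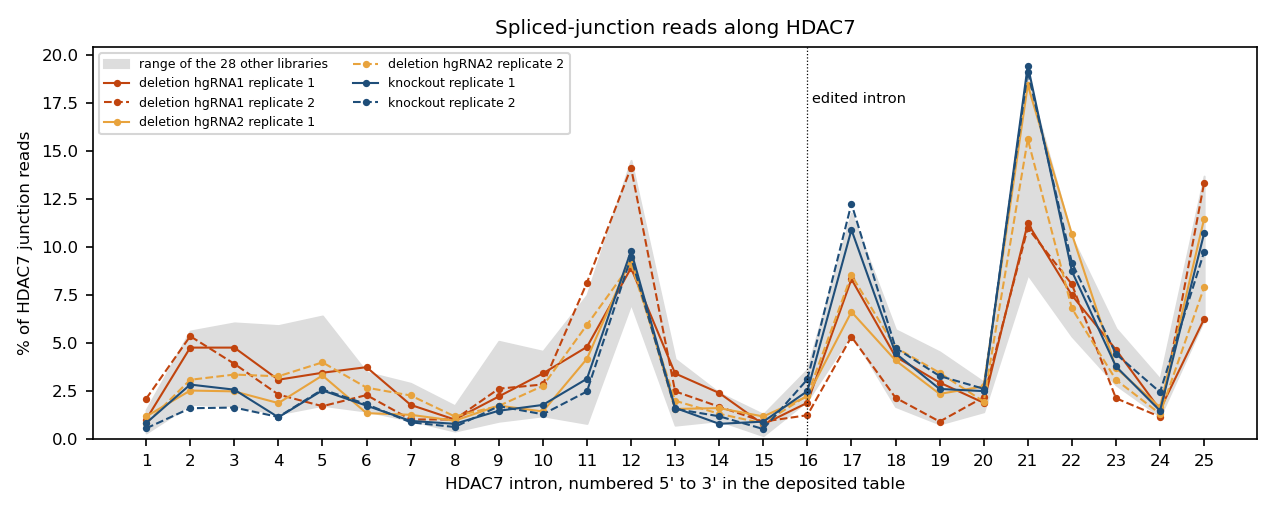
Percent of HDAC7 junction reads at each of the 25 introns, numbered 5′ to 3′ along the gene, with 1 line per library and the range of the 28 other libraries in grey. At intron 4 both knockout lines lie at 1.14 and 1.15%, under all other libraries, and at the edited intron, number 16, the 4 deletion lines lie under both knockout lines.

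Among the relatives and partners of HDAC7, class IIa members had lower values in the deletion. HDAC5 had 120, 147, 111 and 114 CPM in the deletion libraries and 138 and 123 CPM in the knockout libraries, which overlap. In the fit HDAC5 fell by 0.48 on the log2 scale (SE 0.0932, limma adjusted p = 0.00213), HDAC9 fell by 0.36 (adjusted p = 0.0476), and HDAC4 was at -0.26 (adjusted p = 0.317). None of the 4 class IIa genes was called without knockout replicate 1 or without the GC and length trend, where HDAC5 was at -0.10 (adjusted p = 0.692). HDAC5 and HDAC9 were above the controls in the knockout (log2 0.62 and 0.39, limma adjusted p = 0.000194 and 0.0267) and did not pass the test against the controls in the deletion (0.14 and 0.03, adjusted p = 0.353 and 0.911).

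None of the 4 MEF2 genes was called. MEF2A had 35.5, 23.7, 30.6 and 36.4 CPM in the deletion libraries and 28.3 and 31.6 CPM in the knockout libraries, and MEF2D had 42.3, 45.6, 31.9 and 36.6 CPM against 33.8 and 33 CPM. MEF2C, with 0.81 to 2.32 CPM in the deletion libraries and 2.37 and 2.82 CPM in the knockout libraries, showed the largest difference of the 4 (log2 -0.59, limma adjusted p = 0.152). Of 11 tested genes reported elsewhere as MEF2 or HDAC7 targets, CTGF, a secreted matrix-associated factor, was the 1 called (0.71 higher on the log2 scale, limma adjusted p = 0.0183), and it was not called without knockout replicate 1. NR4A1 and KLF2, targets from work on T cells and blood vessels, were at 0.70 and 0.65 (adjusted p = 0.443 and 0.155).

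Of 19 tested kinases and 14-3-3 genes that act on class IIa deacetylases, 0 rose and 3 fell, beside 3.06% and 7.95% of all genes tested. The calcium-dependent kinase CAMK2D had 95.7, 77.9, 93.0 and 94.0 CPM in the deletion libraries and 147 and 136 CPM in the knockout libraries, without overlap (log2 -0.65, SE 0.103, limma adjusted p = 0.000314). It stayed called without knockout replicate 1 (-0.52, adjusted p = 0.0328), unlike the related kinase CAMK1 and the 14-3-3 gene YWHAZ (-0.26 and -0.22, adjusted p = 0.432 and 0.364). Among 17 other deacetylase and corepressor genes HDAC3, TBL1XR1 and CTBP1 fell, by 0.29, 0.55 and 0.31 on the log2 scale, and none of the 17 was called without knockout replicate 1. Without the trend correction none of the 3 was called (limma adjusted p = 0.123 for HDAC3 and 0.071 for TBL1XR1), and CTBP1 was at 0.04. For HDAC3 the authors' deposited RPKM lies the other way, at 42.7 and 44.3 for the 2 deletion hgRNAs and 42.1 for the knockout.

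Across all genes, many of DNA replication and mitosis were lower in the deletion, and matrix, cytokine and hypoxia genes were in part higher. Of 12081 genes tested, 1331 passed an adjusted p of 0.05, 370 of them higher (3.06%) and 961 lower (7.95%) in the deletion. Without knockout replicate 1, 231 of 12074 genes (1.91%) passed, 62 higher (0.514%) and 169 lower (1.40%), and 227 of the 231 were also among the 1331, with the same direction. Without deletion hgRNA 1 replicate 2 as well, 178 genes (1.48%) passed, 53 higher (0.439%) and 125 lower (1.04%). Without the GC and length trend 727 genes passed, 360 higher and 367 lower, so the share of higher genes moved to 49.5%, against 27.8% with it; the median of all genes moved to 0.014, against -0.067 with the trend, and 597 genes were called in the same direction in both. Fitted on the 6 HDAC7 libraries alone, 3 genes were higher and 1 was lower, while 2183 had an unadjusted p under 0.05. HgRNA 1 against the knockout gave 416 higher (3.44%) and 914 lower genes (7.57%), hgRNA 2 gave 136 (1.13%) and 258 (2.14%; 3.26% in all), and 345 genes were called with both. Both comparisons subtract the same knockout libraries, so part of this overlap is built in and it is no separate check.

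**Figure D3:**
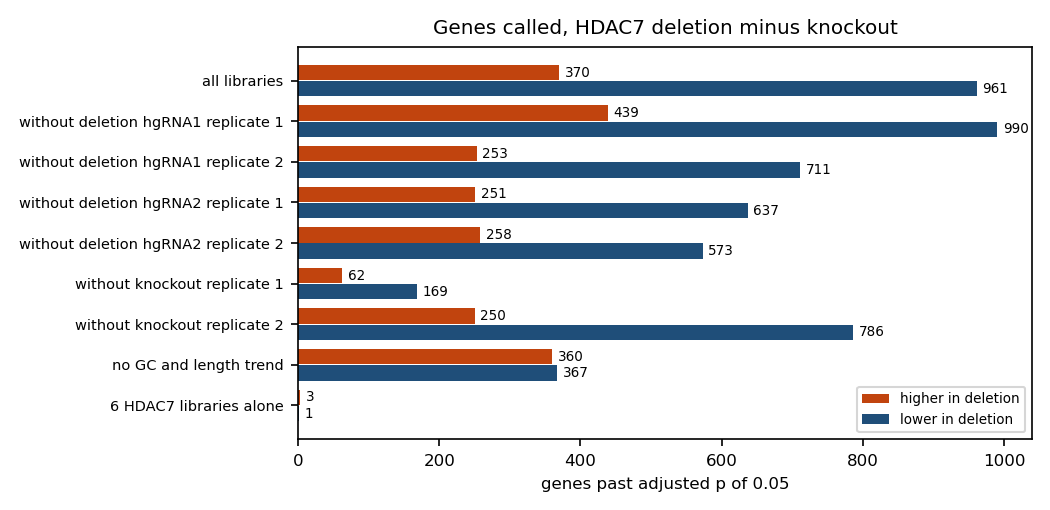
Number of genes past an adjusted p of 0.05 when the fit is repeated with a library left out, without the trend correction or on 6 libraries; orange bars are genes higher and blue bars genes lower in the deletion than in the knockout. Leaving out knockout replicate 1 gives 62 and 169 genes, the fewest of the 6 fits that leave out 1 library.

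Values of other libraries of the series were set beside the called genes. For genes called higher the control mean was nearer to the deletion mean in 81.4% of cases, and for genes called lower in 79.1%, beside 66.4% of all genes tested; the deletion mean rests on 4 libraries and the knockout mean on 2, and the calls use the same means, so these shares only describe. The mean of the 6 DDX5, DDX17 and FNBP4 knockout libraries was nearer to the HDAC7 knockout for 65.9% of genes called higher and 84.4% of those called lower, beside 65.1% of all genes. For the genes called without knockout replicate 1 the controls were nearer to the deletion in 79.0% of those higher, but in 62.4% of those lower, which is under the 66.4% of all genes. Controls minus those 3 other knockouts, a comparison that shares no library with the deletion or the HDAC7 knockout, called 928 higher (7.68%) and 1883 lower genes (15.6%; 23.3% in all). It had the same sign as the HDAC7 comparison for 87.0% of genes called higher and 87.6% of genes called lower, beside 72.6% of all genes; for genes called without knockout replicate 1 these shares were 83.9% and 75.8%.

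The test of whether the difference of deletion and knockout in HDAC7 differs from the mean of the same difference in DDX5, DDX17 and FNBP4 called 398 genes (3.29%), 203 of them more positive in HDAC7 (1.68%) and the others more negative (1.61%). Without knockout replicate 1 this count fell to 1.57% of genes, and without knockout replicate 2 to 101 genes (0.837%). Against the controls, which both comparisons share, the deletion had 245 higher (2.03%) and 207 lower genes (1.71%; 3.74% in all), and the knockout 1275 higher (10.6%) and 414 lower genes (3.43%).

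The 12 genes with the largest rise in the deletion, among called genes with a mean log2 CPM of at least 2, 1 sign with both hgRNAs and all 4 deletion libraries beyond both knockout libraries, include several whose products leave the cell. POSTN, the matrix protein periostin (chr13:37562583-37598844), had 27.4, 24.2, 31.4 and 29 CPM in the deletion libraries and 1.01 and 3.33 CPM in the knockout libraries. All 4 deletion libraries lie far above both knockout libraries and around the 22.1 to 25.7 CPM of the controls. POSTN was 3.94 higher on the log2 scale (SE 0.36, limma adjusted p = 9.08e-07), 3.18 higher without knockout replicate 1 (adjusted p = 9.39e-05), and the 6 other knockout libraries had 6.45 to 14.8 CPM. C3, the central complement component (chr19:6677704-6730562), had 30.9, 35.2, 30.8 and 35.5 CPM in the deletion libraries and 4.73 and 8.85 CPM in the knockout libraries (log2 2.10, SE 0.265, limma adjusted p = 5.57e-05; 1.69 and 0.00944 without knockout replicate 1). C1S, a protease that starts the classical complement cascade, had 23 to 28 CPM in the deletion libraries and 6.49 and 10.8 CPM in the knockout libraries (log2 1.54, limma adjusted p = 0.000899, and 0.0669 without knockout replicate 1).

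CA9, a carbonic anhydrase induced by low oxygen, had 15.8, 35.4, 21.1 and 16.7 CPM in the deletion libraries and 5.21 and 4.58 CPM in the knockout libraries. CCL2, a chemokine that draws monocytes, had 32.4, 20.6, 20.8 and 28.8 CPM in the deletion libraries and 7.17 and 8.73 CPM in the knockout libraries. The rule that chose these genes asks that the groups do not overlap; both passed the test with and without knockout replicate 1 (CA9 log2 1.86 and 1.85, limma adjusted p = 0.000238 and 0.0147; CCL2 1.80 and 1.57, adjusted p = 0.00013 and 0.0122). SNHG6, a noncoding host transcript of a small nucleolar RNA, was low in both groups, with 4.18 to 6.38 CPM in the deletion libraries and 2.10 and 1.26 CPM in the knockout libraries (log2 1.75, limma adjusted p = 0.00246).

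The remaining 6 genes of this set were PPFIA4, ZNF580, GREM1, PPP1R3C, SNED1 and PRSS23, with rises of 1.58 to 2.13 on the log2 scale, and none of them was called without knockout replicate 1. PRSS23, a secreted protease, showed how much deletion libraries could differ among themselves, with up to 218 CPM in hgRNA 1, 34.7 and 61.9 CPM in hgRNA 2, and 29.5 and 27.9 CPM in the knockout. GREM1, an antagonist of bone morphogenetic proteins, had 50.6 and 85.5 CPM in hgRNA 1, 17.3 and 28.3 CPM in hgRNA 2, and 13.9 and 9.23 CPM in the knockout. For GREM1 the authors' deposited table points the other way, with an RPKM of 366 and 363 for the 2 deletion hgRNAs and 416 for the knockout, so this rise rests on junction reads only. For PRSS23 it gives 431, 428 and 420, a far smaller difference than the junction reads show. The gap is also wide for SNHG6, with 69.5 for each deletion hgRNA and 63.7 for the knockout in the authors' deposited table, and for ZNF580, with 28.3, 21.7 and 20.1. For 11 of the 12 the authors' deposited RPKM of both deletion hgRNAs lies above that of the knockout.

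Over all 12, both knockout libraries were below all 4 controls, and the deletion libraries overlapped the range of the controls for 11; PPFIA4 was the exception. The deletion passed the test against the controls for 0 of them and the knockout for 10. Of the 12, 8 also passed the test of the difference from the other 3 genes, with POSTN at 4.41 (limma adjusted p = 2.73e-07) and CA9 at 3.49 (adjusted p = 1.02e-06). That test contains the difference by which the 12 were chosen, so the count only describes, and 3.29% of all genes passed it.

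**Figure D4:**
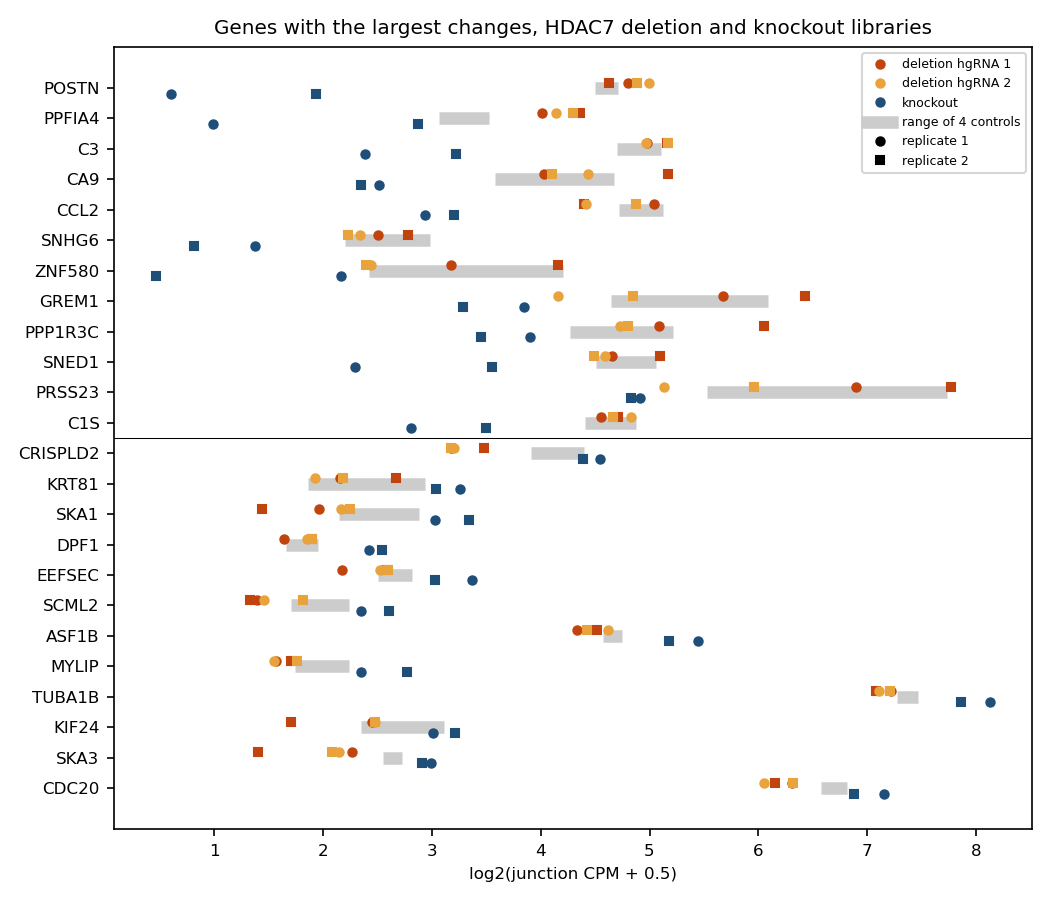
Level of the 12 genes with the largest rise (top) and the 12 with the largest fall (bottom), on a log2 scale of CPM plus 0.5, with 1 point per library and the range of the 4 controls as a grey bar. For POSTN the knockout points at 1.01 and 3.33 CPM lie far left of the controls and the deletion points lie at 24.2 CPM or more, while for CRISPLD2 the deletion points lie left of the controls.

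The 12 genes with the largest fall, chosen the same way, include SKA1, SKA3 and CDC20, which act in mitosis. CRISPLD2, a secreted protein with a lipopolysaccharide-binding domain (chr16:84819984-84920768), had 8.54, 10.7, 8.73 and 8.56 CPM in the deletion libraries, 22.9 and 20.4 CPM in the knockout libraries, and 14.6 to 20.5 CPM in the controls. Here the deletion libraries lie below all controls, with a log2 change of -0.97 against them (limma adjusted p = 8.11e-05), and the knockout did not pass that test (0.40, adjusted p = 0.0532). CRISPLD2 fell by 1.37 against the knockout (SE 0.149, adjusted p = 9.28e-06), and by 1.26 without knockout replicate 1 (adjusted p = 0.00144).

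SKA1 and SKA3, which couple kinetochores to spindle microtubules, had 2.22 to 4.25 and 2.15 to 4.30 CPM in the deletion libraries. In the knockout libraries SKA1 had 7.64 and 9.60 CPM and SKA3 had 7.44 and 7.03 CPM (they fell by 1.301 and 1.001 on the log2 scale, limma adjusted p = 0.00174 and 0.00266). CDC20, the activator of the anaphase-promoting complex, had 78.7, 70.8, 65.7 and 79.3 CPM in the deletion libraries, 142 and 117.5 CPM in the knockout libraries and 94.6 to 112 CPM in the controls, so the deletion lies below and the knockout above all 4 controls. TUBA1B, an alpha tubulin, had 135 to 148 CPM in the deletion libraries and 280 and 232 CPM in the knockout libraries (log2 -1.01, limma adjusted p = 0.000559), and ASF1B, a histone chaperone of replicating cells, had 19.7 to 24.0 CPM against 43.1 and 35.8 CPM (-1.06, adjusted p = 0.000185). TUBA1B belongs to a family of near-identical genes, among which reads may be split.

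The other 6 were KRT81, DPF1, EEFSEC, SCML2, MYLIP and KIF24, with falls of 1.00 to 1.32 on the log2 scale. Of all 12 genes, 11 were called without knockout replicate 1 and SKA3 was not (-0.93, limma adjusted p = 0.0603). The authors' deposited RPKM lies below that of the knockout for both deletion hgRNAs in all 12. Over all genes with an RPKM in the authors' deposited table, this side was the same for 328 of 350 genes called higher (93.7%) and 879 of 941 called lower (93.4%); among all 11390 genes with a value, both deletion hgRNAs were above the knockout in 35.9% and below it in 44.6%. That table was made from the same libraries and is no independent measurement.

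Most genes of DNA replication and the G1/S transition fell in the deletion. Of 27 tested, 0 were higher and 20 lower, the median was -0.57, and in 22 all 4 deletion libraries lay below both knockout libraries; over all genes 3.06% were higher, 7.95% lower, 14.8% had all 4 deletion libraries below both knockout libraries (15.7% above) and the median was -0.067. Without knockout replicate 1, 10 of the 27 were called lower, beside 1.40% of all genes, with a median of -0.52. The summed level of the list was 1229, 1283, 1317 and 1317 CPM in the deletion libraries, 1939 and 1760 CPM in the knockout libraries and 1506 to 1618 CPM in the controls. The deletion libraries therefore lie below, and the knockout libraries above, all 4 controls.

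Within that list, 6 named members belong to the replicative helicase or its assembly. MCM10, which helps start the helicase, had 16.2, 15.3, 15.8 and 15.9 CPM in the deletion libraries and 23.9 and 30.6 CPM in the knockout libraries (log2 -0.78, SE 0.104, limma adjusted p = 8.98e-05). CDC45, a helicase component, and MCM6, a helicase subunit, changed by -0.78 and -0.62 (adjusted p = 0.000238 and 0.000468), and the helicase subunits MCM2, MCM5 and MCM7 by -0.78, -0.71 and -0.75; MCM2 and MCM5 were not called without knockout replicate 1 (limma adjusted p = 0.103 and 0.127). RRM1, the large subunit of ribonucleotide reductase, had 81.1, 73.4, 90.4 and 95.9 CPM in the deletion libraries and 133 and 123 CPM in the knockout libraries. FEN1 and GINS4 had positive values (0.51 and 0.23) that did not pass the test (limma adjusted p = 0.259 and 0.47).

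Most mitosis and G2/M genes fell as well. Of 25 tested, 0 were higher and 21 lower (3.06% and 7.95% of all genes), with a median of -0.58 on the log2 scale, and 15 were called lower without knockout replicate 1 (1.40% of all genes), with a median of -0.72. Their summed level was 1834, 1486, 1824 and 2002 CPM in the deletion libraries, 2481 and 2986 CPM in the knockout libraries and 2262 to 2599 CPM in the controls. TPX2, a spindle assembly factor, had 191.5, 187, 216.1 and 220 CPM in the deletion libraries and 320 and 335 CPM in the knockout libraries (log2 -0.73, SE 0.0804, limma adjusted p = 9.51e-06). KIF20A and KIF11, spindle motors, fell by 0.78 and 0.76, and ANLN, a cytokinesis scaffold, by 0.61, each without overlap of the groups and each again called without knockout replicate 1. CENPE, a kinetochore motor, CENPF, a kinetochore protein, and MKI67, the proliferation antigen Ki-67, did not pass the test (0.38, -0.16 and -0.11, limma adjusted p = 0.718, 0.801 and 0.884). For these 3 the knockout libraries differed from each other, and CENPE had 38.8, 24.5, 43.4 and 48.2 CPM in the deletion libraries and 12.3 and 71.9 CPM in knockout replicates 1 and 2.

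Against the controls, which both groups share, the median of the replication list was -0.29 in the deletion and 0.26 in the knockout, and that of the mitosis list -0.42 in the deletion and 0.18 in the knockout. The difference from DDX5, DDX17 and FNBP4 was called negative for 6 of 27 replication genes and 11 of 25 mitosis genes, beside 1.61% of all genes. In controls minus the 3 other knockouts 4 replication and 5 mitosis genes were lower (15.6% of all genes), with medians of -0.07 and 0.03. Whether growth, density or the share of dividing cells differed between the cultures was not measured, and in bulk RNA fewer cells in a phase and less RNA per cell cannot be told apart.

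Hypoxia and glycolysis genes rose in part. Of 24 tested, 10 were higher and 1 lower (3.06% and 7.95% of all genes), with a median of 0.23 on the log2 scale, and CA9, BNIP3, PFKFB3 and PFKFB4 were higher without knockout replicate 1 (0.514% of all genes). PFKFB3, which makes the activator of phosphofructokinase, had 62.0, 82.0, 63.7 and 56.8 CPM in the deletion libraries, 32.4 and 30.1 CPM in the knockout libraries and 40.4 to 52.4 CPM in the controls (log2 0.85, limma adjusted p = 0.000515). Its relative PFKFB4 had 23.8, 29.3, 23.7 and 22 CPM against 12.8 and 13.1 CPM (0.69, adjusted p = 0.00147). BNIP3, a mitophagy receptor, SLC2A3, a glucose transporter, and the hypoxia-induced genes ANKRD37 and NDRG1 rose by 0.61, 0.76, 0.95 and 0.47. Of the enzymes of glycolysis itself, HK1 was the 1 called lower (-0.37, limma adjusted p = 0.04), and ENO1, ALDOA and LDHA were at -0.35, -0.01 and 0.17 without passing the test (adjusted p = 0.119, 0.955 and 0.474). The difference from the 3 other genes was called positive for 13 of the 24, beside 1.68% of all genes.

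**Figure D5:**
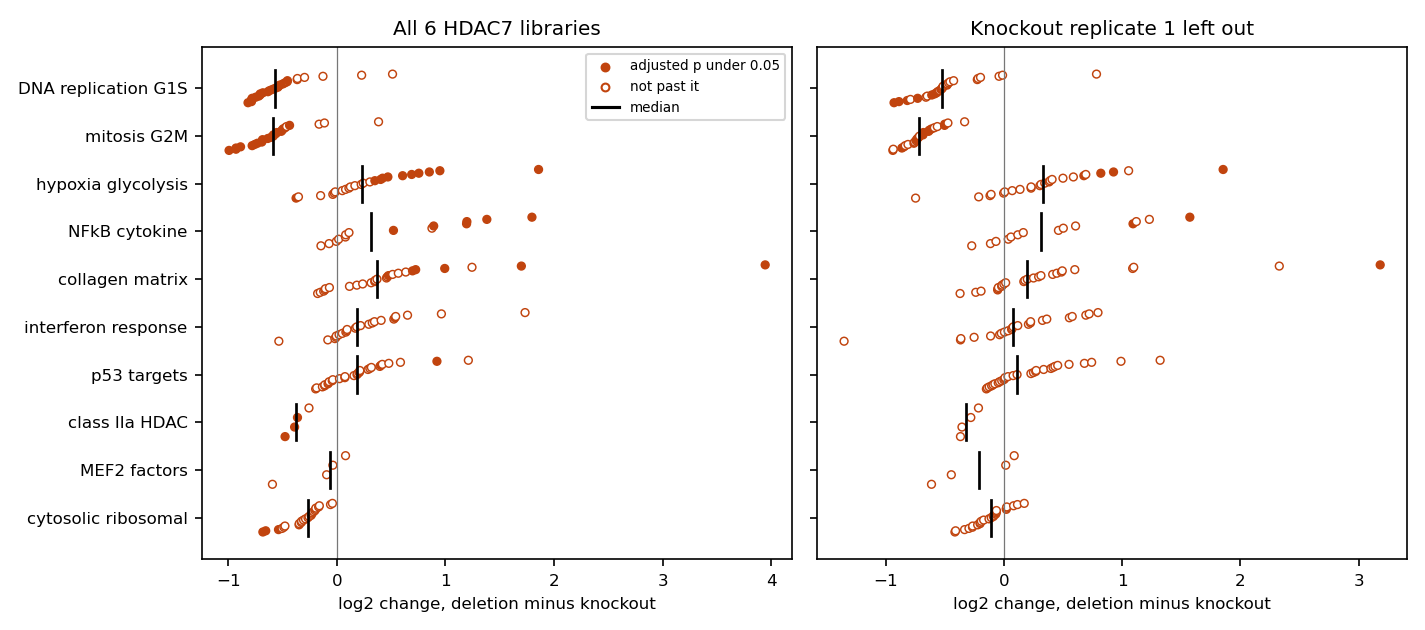
Log2 change, deletion minus knockout, of each tested member of 10 gene lists with all libraries (left) and without knockout replicate 1 (right); filled points passed an adjusted p of 0.05 and bars mark medians. All filled points of the replication and mitosis lists lie left of 0 in both panels, with medians of -0.57 and -0.58 on the left.

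Of 14 NF-kB and cytokine genes 6 were higher and 0 lower (3.06% and 7.95% of all genes), with 2 higher without knockout replicate 1 (0.514% of all genes), and the median was 0.32 on the log2 scale. IL1B, an inflammatory cytokine, had 18.1, 20.2, 19.4 and 19.1 CPM in the deletion libraries and 8.45 and 8.98 CPM in the knockout libraries (log2 1.20, SE 0.158, limma adjusted p = 8.68e-05; 1.09 and 0.0108 without knockout replicate 1). The controls had 14.1 to 19.1 CPM. Besides IL1B and CCL2, CXCL8, ICAM1, BIRC3 and RELB rose by 1.38, 1.20, 0.89 and 0.52, whereas NFKBIA, NFKB1 and IL6 lay between -0.15 and 0.08 and did not pass the test.

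Of 25 collagen and matrix genes 7 were higher and 0 lower (3.06% and 7.95% of all genes), with a median of 0.37 on the log2 scale; without knockout replicate 1 only POSTN of the 25 was called. TNC, tenascin, had 112, 113, 99.5 and 119.03 CPM in the deletion libraries, 48.2 and 73.4 CPM in the knockout libraries and 130.0 to 151 CPM in the controls, so both groups lie below the controls. TGFBI, a secreted adhesion protein, had 1189 to 1331 CPM in the deletion libraries and 835 and 1007 CPM in the knockout libraries (log2 0.35, limma adjusted p = 0.00875). The authors' deposited table points the other way for TGFBI, with an RPKM of 395 and 450.01 for the 2 deletion hgRNAs and 453 for the knockout. COL1A1, a collagen chain and a fibroblast marker, rose by 0.99 (adjusted p = 0.0258). The 10 fibroblast markers summed to 8277 to 10988 CPM without TMM scaling in the deletion libraries and 9356 to 10641 CPM in the knockout libraries, and 6 of the 10 immune markers had 3 reads or fewer over all 6 libraries. Of the others, CD68 had 380 to 618 reads in the deletion libraries and 523 and 478 in the knockout libraries, and CSF1R had 61 to 97 reads in the deletion libraries and more, up to 112, in both knockout libraries.

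Splicing outside HDAC7 differed at few events. Of 211378 events tested, 4 (0.00189%) were called, that is, had both an adjusted p under 0.05 and groups at least 10 points apart. The adjusted p alone was passed by 40 (0.0189%), of which 21 differed by less than 0.5 points. Without knockout replicate 1, 28 of 217748 events (0.0129%) were called, and 148 (0.068%) passed the adjusted p. An exon of WIZ, a zinc finger protein of histone methyltransferase complexes (chr19:15431012-15431182), was included at 91.9, 83.8, 87.1 and 90.5% in the deletion libraries, at 100% in both knockout libraries and at 85.6 to 94.3% in the controls (limma adjusted p = 0.021). An exon of HHAT, an acyltransferase of hedgehog proteins (chr1:210404469-210404679), was included at 89.3, 72.3, 87.1 and 88.9% in the deletion libraries and at 100% in both knockout libraries (limma adjusted p = 0.0447). For HHAT the controls had 76.9 to 90.2%, so for both exons the deletion libraries overlap the controls and the knockout libraries lie outside.

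An exon of the semaphorin receptor gene PLXNB1 (chr3:48406568-48406735) was included at 29.8, 70.4, 22.4 and 10.7% in the deletion libraries and at 0 and 2.2% in the knockout libraries, a wide spread within the deletion (limma adjusted p = 0.0308). An alternative 3′ splice site of WDR60, a dynein intermediate chain (chr7:158914233-158914321), was used at 100, 100, 98.5 and 100% in the deletion libraries and at 96.1 and 82.2% in the knockout libraries (limma adjusted p = 0.0112). Without knockout replicate 1 the WDR60 site kept its call (adjusted p = 0.00245), and WIZ, HHAT and PLXNB1 lost theirs (limma adjusted p = 0.0588, 0.148 and 0.131). The same held without deletion hgRNA 1 replicate 2, where WDR60 had 0.0483 and WIZ, HHAT and PLXNB1 had 0.0925, 0.168 and 0.125 (limma adjusted p). Of 62723 introns tested, none was called by limma, and the median difference in retention was 0.15 points. The mean difference was 0.49 points, made up of 1.05 points against knockout replicate 1 and -0.07 points against knockout replicate 2. Knockout replicate 1 also has the fewer exon-intron reads, whose part in the gene and splicing results was not tested.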

How the data were processed

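The deposited splicing table gives, per event and library, a percent of inclusion or retention as computed by the authors with vast-tools, the tool the file is named for,, and a quality string that holds the junction reads behind it as whole counts. The authors' deposited expression table gives 1 RPKM per hgRNA, with replicates combined, and a log2 fold change, a p-value and an FDR against the intergenic controls; Salmon 1.10 and edgeR stand in the submitters' processing notes with no role given, and no build is given in the sources used here. Intron positions match GENCODE v29 (GRCh38) for 192907 of 192950 introns (99.98%). The 4 columns of 2 libraries that the labels do not list were not used.

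Spliced-junction reads of all intron events were summed per gene. Genes reaching 10 reads at median depth in 2 libraries and 15 in all were kept, scaled by TMM (own code) and fitted with limma 3.58.1 (voom) on all 34 libraries in 17 hgRNA groups, with a 4-df spline on GC content and log2 length removed per library. P-values were adjusted by Benjamini-Hochberg at 0.05 over all genes or all events. Log2 changes are deletion minus knockout, and the mean of both hgRNAs stands for the deletion. Events needed 20 reads in each of the 6 HDAC7 libraries and were fitted as log2 of (inclusion + 1) over (exclusion + 1). Values of other libraries with under 20 reads were left out. A gene counts only where it is spliced, and genes with near-identical copies may share reads.

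Members, gene lists and tests were chosen with earlier results of these data known. Named are the 12 genes with the largest called rise and the 12 with the largest called fall among genes with a mean of 2 or more on the log2 CPM scale 1 sign with both hgRNAs and all 4 deletion libraries beyond both knockout libraries, and up to 4 called members of each list with at least 3 called; other list members named were chosen after their values were seen. Libraries are biological duplicates by label, and p-values measure the spread between them. Without knockout replicate 1 the knockout is 1 library, assumed to vary like the other groups, so a call there is no separate check. Limits from counts of 0 use 3 counts and cover counting error only. The fits were tested on simulated data. Some list members are not reported here. RefSeq tables were not needed: exon and PAM bases come from the GENCODE transcripts and guides from the labels. R 4.3.3 and Python 3.11 (numpy, pandas, matplotlib) were used.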

Additional observations from a re-analysis of the deposited data

Results flagged for a closer look

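In 80 groups of the 4 deletion libraries, 11 had a library far from the other 3 by Dixon's criterion, which chance gives in about 1 of 20 groups, and 10 of the 11 were deletion hgRNA 1 replicate 2. That library was highest for CRISPLD2 (10.7 CPM), HDAC7 (244 CPM), CTBP1 (158 CPM), SMTN (558 CPM), DDIT4 (66.7 CPM) and the share of exon-intron reads (2.77%). It was lowest for KIF24 (2.75 CPM), CAMK2D (77.9 CPM), KDM3A (72.9 CPM) and inclusion of the HHAT exon (72.3%). For the WDR60 splice site the lowest library was deletion hgRNA 2 replicate 1 (98.5%).

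The difference of deletion and knockout was itself different between HDAC7 and the mean of DDX5, DDX17 and FNBP4 for 35 of the 73 genes named by rule, in an interaction test in the same limma fit (adjusted over all genes). Of all genes tested 3.29% passed it. Most of the 73 were chosen by the deletion minus knockout difference, which is part of this test, so a high share follows from the choice. The values below are log2 differences of differences, positive where the deletion lies higher relative to the knockout in HDAC7 than in the other 3 genes. Among genes with the largest rise these were POSTN 4.41, CA9 3.49, PRSS23 2.58, GREM1 2.30, ZNF580 2.09, C3 1.53, SNHG6 1.5 and CCL2 1.23. Among genes with the largest fall they were SKA1 -1.25, CRISPLD2 -1.15, DPF1 -1.10, EEFSEC -0.96, SKA3 -0.93, SCML2 -0.91, ASF1B -0.74 and CDC20 -0.66.

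Among members of the lists, replication and mitosis genes had CDC45 -0.68, KIF20A -0.64, KIF11 -0.56, TPX2 -0.48, MCM10 -0.47, ANLN -0.46 and RRM1 -0.43. HDAC5, HDAC9 and CAMK2D each had -0.54. Positive values were found for THBS2 (1.87), IER3 (1.74), PFKFB3 (1.21), BIRC3 (0.88), VLDLR (0.88), PFKFB4 (0.78), TNC (0.66), TGFBI (0.63) and KDM3A (0.40). Over all genes 398 passed this test. Deletion and knockout libraries of the 4 genes were made with different guides, and what sets the difference was not tested.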

How the results depend on the processing

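Counts depended strongly on which libraries were fitted. Of the 1331 genes called, leaving out 1 HDAC7 library gave 231 (without knockout replicate 1) to 1429, with 831 without deletion hgRNA 2 replicate 2. The test against the other 3 genes gave 101 (without knockout replicate 2) to 488 against 398, with 248 or 252 when either deletion hgRNA 2 library was dropped and 1.57% of genes without knockout replicate 1. Splicing events gave 1 (without replicate 2 of either deletion hgRNA) to 42 (without knockout replicate 2) against 4. Without both HDAC7 libraries that stand apart these were 178 genes, 92 genes and 23 events, and without all 7 libraries of the series that stand apart 659 genes and 34 events (and 1754 against 2811 for genes, intergenic controls minus the 3 other knockouts); these 2 settings were chosen after seeing the data. Without the trend 727 genes were called, and 55 without knockout replicate 1 as well (22 higher, 33 lower). On the 6 HDAC7 libraries alone 4 genes, 0 events and 0 HDAC7 events (those past the adjusted p, with no minimum of points) passed by limma, with 2183 genes and 13858 events at an unadjusted p under 0.05. HgRNA 2 alone gave 394 genes, 0 events and 1 HDAC7 event against 3, and hgRNA 1 alone 15 events. Events numbered 1 at 50 reads, 7 at 5 points and 1 at 20 points.

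For HDAC7 itself the log2 change of -0.39 lost its call without the trend (-0.11), with no filter (-0.37), a stricter filter (-0.35), on the 6 libraries alone (-0.38), without both libraries that stand apart (-0.46) and with hgRNA 1 alone (-0.27); leaving out 1 library gave -0.49 to -0.28. Without the trend CTBP1 (0.038), FLNA (0.14) and SMTN (0.016) turned, and 16 other named genes kept their direction but lost their call. The cause was not tested.

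Replicate numbers did not pair the HDAC7 libraries: deviations of same-numbered libraries correlated at -0.22, -0.17 and -0.02 among the 3 hgRNAs. With libraries of other edited genes, the HDAC7 knockout correlated at 0.398 to 0.495 with the 3 other knockouts, and deletion hgRNA 1 at 0.396 with control hgRNA 1 and 0.573 with DDX17 deletion hgRNA 1, so same-numbered libraries share deviations there. With a replicate block over all 34 libraries 1544 genes were called, 433 in the test against the other 3 genes, 2964 for genes, intergenic controls minus the 3 other knockouts, and 270 without knockout replicate 1; HDAC7 was at -0.39, 3 events were called and 3 HDAC7 events passed the adjusted p. On the 6 libraries alone the replicate block left 1 gene, with HDAC7 at -0.38. Other settings kept the counts reported near those of the main fit, but not every call of a single gene. Of the 72 named genes other than HDAC7, 11 lost their call with no filter and 7 with the stricter filter. With limma-trend in place of voom 3 lost it, with hgRNA 2 alone 28 and with hgRNA 1 alone 5, each keeping its direction. Depth limits what can be seen of HDAC7 splicing: 45 to 89 reads cross the edited intron per library.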

Other observations

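Several gene groups had few called genes, although the interferon and p53 lists lay higher in the deletion. Their medians were 0.183 and 0.186 on the log2 scale, beside -0.067 for all genes. Without knockout replicate 1 they were 0.077 and 0.11, beside -0.06. The interferon list summed to 685.9 to 714.5 CPM in the deletion libraries and 616 and 646.5 CPM in the knockout libraries. The p53 list summed to 2971 to 3324 CPM against 2867 and 2789 CPM, and no test was made of these sums. Of 23 interferon genes, IRF9, which carries the interferon signal to the nucleus, was the 1 called higher, with 21.3, 22.6, 18.4 and 24.8 CPM in the deletion libraries and 12.5 and 15.1 CPM in the knockout libraries. Of 29 p53 targets SESN1 and PHLDA3 were higher (log2 0.41 and 0.92, limma adjusted p = 0.0171 and 0.0202), of 23 nuclear speckle genes none passed (limma; their median was 0.04), and of 22 cholesterol synthesis genes HMGCS1 was higher. None of these genes was called without knockout replicate 1.

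Ribosomal protein genes were negative on the log2 scale in all 25 tested, with a median of -0.27 beside -0.067 for all genes, but 3 were called (RPL8, RPS14 and RPS18) and 0 without knockout replicate 1, where 19 of the 25 were negative. Of 18 contractile genes TAGLN, CNN1, SMTN and FLNA were called lower (7.95% of all genes) and 0 without knockout replicate 1. For SMTN and FLNA the call rests on the trend correction: their mean CPM was higher in the deletion (419 and 10706) than in the knockout (408 and 9633), and without the trend they were at 0.016 and 0.14 on the log2 scale. TAGLN, an actin-binding protein of smooth muscle, had 1514, 1832, 1778 and 1538 CPM in the deletion libraries, 2320 and 1788 CPM in the knockout libraries and 1092 to 1206 CPM in the controls, so both groups lie above the controls. VLDLR, a lipoprotein receptor counted among stress-response genes, had 94.4, 104, 118.2 and 95.7 CPM in the deletion libraries, 63.1 and 73.5 CPM in the knockout libraries and 61 to 72.5 CPM in the controls, so here the deletion lies above all controls and the knockout overlaps them (deletion against controls log2 0.66, limma adjusted p = 0.00233).

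The remaining lists had few calls. Of 14 immediate early genes IER3 was higher, and FOSL1 and SPRY2 were lower. Of 19 amino acid and integrated stress genes DDIT4 and VLDLR were higher and SLC3A2 and SLC7A1 lower, and of 18 genes of endoplasmic reticulum stress the chaperones HSPA5 and HYOU1 were lower. TRA2B, a splicing factor among 25 hosts of detained introns, was lower, as were SMG8 and EIF4A3 of 20 genes of nonsense-mediated decay. Among cell type markers KRT8 (pigment epithelium, of 10), EGFL7 (endothelium, of 6), CSF1R (immune cells, of 3) and TUBB3 (neurons, of 4) were lower, COL1A1 and FAP (fibroblasts, of 9) were higher, and of 4 epithelial markers CLDN1 was higher and TJP1 lower. Of all these, FOSL1 and CSF1R were called without knockout replicate 1.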
